A study of Rattus norvegicus with 6 samples.

Results

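The genes described here are 27 rat genes of cholesterol and fatty acid synthesis, with the factors that control them, read in nerve that had regrown across a sciatic nerve defect. They were picked by symbol from the pathways and occupy 29 of the 23091 rows of the deposited count table. Of these genes, 19 belong to sterol synthesis and its control and 8 to fatty acid synthesis and its control. All rats were wild-type males of the SD (Sprague-Dawley) strain with a sciatic nerve defect. In the GDNF-Gel/HA-Mg group (3 libraries, called implant 1 to implant 3), the defect received a nerve conduit named for glial cell line-derived neurotrophic factor (GDNF). In the NC group (3 libraries, NC 1 to NC 3), the wound was closed with nothing implanted, so the groups differ by the whole conduit and not by GDNF alone. The labels give neither the age of the rats nor the time after surgery. Whether each library is a separate animal is also not stated, so a p-value here reflects the spread of these samples alone, and that spread may be technical.

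Cholesterol is built from acetyl-CoA through the mevalonate pathway, which makes isoprenoid units, joins them to squalene, closes the sterol rings and then trims lanosterol to cholesterol. Fatty acids are built from the same acetyl-CoA by acetyl-CoA carboxylase and fatty acid synthase, and are then elongated and desaturated. The transcription factor SREBP-2, encoded by Srebf2, is known mainly as an activator of the sterol genes, and SREBP-1, encoded by Srebf1, mainly as an activator of the fatty acid genes. Both are held in the endoplasmic reticulum by INSIG proteins when sterols are plentiful. Myelinating Schwann cells of peripheral nerve make most of their own cholesterol and much of their fatty acid, while the fat cells that lie around nerve express the fatty acid genes strongly.

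The libraries held 16120518, 18491379 and 17619224 counts with the implant and 16421669, 15897850 and 17990057 counts in NC. Several differed in cell-type markers, and these differences ran across the groups. Markers of myelin were at a summed 1484 to 21103 CPM (counts relative to the scaled library size) with the implant and at 1624 to 41596 CPM in NC, and all 15 were highest in NC 2. Markers of fat cells were at a summed 2334 to 3672 CPM with the implant and at 1886 to 12746 CPM in NC, and all 13 measured were highest in NC 3. Haemoglobin genes took 8.08% to 14.8% of the counts with the implant and 1.02% to 25.2% in NC, where NC 3 was the highest. The nerve's own markers were present in every library. However, 9 of 11 Schwann lineage markers were lowest in NC 3, against 3469 of 13999 genes tested. Sox10, a factor of the Schwann lineage, was at 122 to 179 CPM with the implant and at 21.8 to 243 CPM in NC.

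Promoters of these genes are shown first, because the regulators of these genes are known to bind short motifs there. RefSeq windows of 300 bases, from 250 before to 50 after the gene start on the GRCr8 build, were matched by symbol for 20 of the 27 genes, 15 of the sterol group and 5 of the fatty acid group. The sequences are the 200 bases before the start, 5′ to 3′ on the gene's strand, and capitals mark CCAAT or its reverse complement ATTGG, the box bound by nuclear factor Y, a known partner of the SREBPs. Hmgcs1 and Idi1 are mevalonate pathway enzymes, Insig1 is the sterol-sensing retention protein, and Scd2 and Scd are the desaturases whose levels ran apart. The windows are chr2:53382104-53382303 on the plus strand for Hmgcs1, chr17:66547525-66547724 on the minus strand for Idi1, chr4:8057770-8057969 on the minus strand for Insig1, chr1:253118177-253118376 on the plus strand for Scd2 and chr1:253231732-253231931 on the minus strand for Scd.
Hmgcs1: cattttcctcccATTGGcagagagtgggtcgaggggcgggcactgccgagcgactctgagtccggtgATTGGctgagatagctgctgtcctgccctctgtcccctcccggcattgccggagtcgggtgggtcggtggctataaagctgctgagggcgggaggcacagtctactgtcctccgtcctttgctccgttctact
Idi1: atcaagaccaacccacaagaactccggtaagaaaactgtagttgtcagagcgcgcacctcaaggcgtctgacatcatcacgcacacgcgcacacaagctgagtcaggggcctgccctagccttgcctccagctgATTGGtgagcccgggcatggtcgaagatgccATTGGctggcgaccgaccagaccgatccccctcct
Insig1: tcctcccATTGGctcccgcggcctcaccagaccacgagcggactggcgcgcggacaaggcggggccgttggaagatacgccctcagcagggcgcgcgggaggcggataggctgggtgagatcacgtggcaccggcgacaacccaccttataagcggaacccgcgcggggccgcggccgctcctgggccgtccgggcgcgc
Scd2: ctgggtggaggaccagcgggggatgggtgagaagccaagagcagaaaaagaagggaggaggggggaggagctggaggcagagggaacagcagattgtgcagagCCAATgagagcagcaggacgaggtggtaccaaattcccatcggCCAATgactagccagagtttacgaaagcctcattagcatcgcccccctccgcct
Scd: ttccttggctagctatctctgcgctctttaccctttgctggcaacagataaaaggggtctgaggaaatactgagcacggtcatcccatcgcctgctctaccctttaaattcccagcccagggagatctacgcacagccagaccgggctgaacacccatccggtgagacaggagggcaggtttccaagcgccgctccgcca

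The CCAAT letters, searched on both strands of the whole windows, were found in 13 of the 15 sterol genes, all but Cyp51 and Dhcr7. They were found in 4 of the 5 fatty acid genes, all but Scd. Among 33469 RefSeq rat promoter windows of the same length, 37.5% held them. The E-box CACGTG, a palindrome, was found in Insig1 and Sc5d and in none of the fatty acid genes, against 6.42% of all windows. The sterol regulatory element was searched as TCACNCCAC on both strands, where N is any base, and was found in none of the 20 genes, against 1.12% of all windows. These are letter matches in a fixed window, and no overlap between the motifs was removed. So few windows hold the letters of the sterol regulatory element that finding none in 20 genes does not show a lack of it. Sites that differ from those letters were not counted.

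No member differed between the groups by edgeR's quasi-likelihood test with Benjamini-Hochberg adjustment over all genes. Of the 27 genes, 26 passed the filter on low counts and were tested among 13999 genes, and every one had an adjusted p of 1.0 in that test. The background was the same: edgeR called 0 of 13999 genes (0%), with 241 at an unadjusted p under 0.05, limma-voom called 0, and DESeq2 called 11 genes (0.0786%), none of them a member. The sterol genes had a median log2 fold change (implant over NC) of -0.08, with 4 positive and 14 negative. All 8 fatty acid genes had a negative log2 fold change, with a median of -0.60. Over all genes tested the median was -0.01, and 53.0% had a negative value.

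The first enzymes of the mevalonate pathway varied more between libraries of 1 group than between the groups. Hmgcs1, which makes HMG-CoA, was at 197, 61.8 and 142 CPM in implant 1 to 3 and at 79.6, 308 and 109 CPM in NC 1 to 3. Implant 2 and NC 1 were the low libraries and NC 2 the highest, so that the groups overlapped. Its mean was 133 ± 67.8 CPM with the implant and 165 ± 125 CPM in NC (SD, n = 3 each), with a log2 fold change of -0.31 ± 0.63 (SE). In bulk tissue, fewer cells of a type and less RNA per cell cannot be told apart. Mvk, the mevalonate kinase, was at 13.5, 13.8 and 16.3 CPM with the implant and at 14.7, 20.3 and 13.5 CPM in NC. Pmvk, which adds the next phosphate, was at 29.4, 21.6 and 29.2 CPM with the implant and at 23.4, 34.6 and 26.9 CPM in NC. Mvd, which removes the carboxyl group to give the isoprenoid unit, was at 6.61, 5.87 and 4.60 CPM with the implant and at 6.18, 8.21 and 3.98 CPM in NC. These 3 enzymes spread much less than Hmgcs1, and their groups overlapped as well.

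Idi1, the isomerase that readies isoprenoid units for chain building, was at 42.6, 13.5 and 34.6 CPM with the implant and at 13.9, 68.4 and 21.7 CPM in NC. It had a log2 fold change of -0.20 ± 0.69 (SE), and its NC libraries alone spanned 4.92-fold. Fdps, the farnesyl diphosphate synthase, has 3 rows in the table, which are all listed at 0 in every library, and it was not tested. The enzymes on either side of it in the pathway, Idi1 and Fdft1, had counts in all 6 libraries, so a listed 0 for Fdps gives no level. Fdft1, the squalene synthase and the first step committed to sterols, was at 65.8, 25.4 and 66.4 CPM with the implant and at 27.3, 100.4 and 47.9 CPM in NC. Sqle, the squalene epoxidase, was at 31.7, 12.99 and 21.8 CPM with the implant and at 17.5, 38.4 and 14.0 CPM in NC. Lss, which closes the ring system to lanosterol, was at 21.7, 17.2 and 17.5 CPM with the implant and at 17.1, 21.9 and 24.5 CPM in NC. It kept within 1.43-fold over the 6 libraries and was highest in NC 3, unlike the enzymes before it.

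The late enzymes, which trim lanosterol to cholesterol, fell into a variable and a steady set. Cyp51, the lanosterol demethylase, was at 120.4, 46.3 and 71.5 CPM with the implant and at 55.8, 135 and 57.4 CPM in NC, a log2 fold change of -0.06 ± 0.48 (SE). Msmo1, a sterol methyl oxidase, was at 74.2, 33.8 and 58.5 CPM with the implant and at 36.6, 111 and 28.6 CPM in NC. Nsdhl, which works with it, was at 37.5, 22.2 and 35.8 CPM with the implant and at 17.9, 48.4 and 26.3 CPM in NC. In all 3, NC 2 was the highest library and implant 2 was below both other implant libraries. Sc5d, the sterol desaturase, was at 32.8, 12.8 and 26.1 CPM with the implant and at 15.8, 50.1 and 15.7 CPM in NC. Tm7sf2, a sterol reductase, was at 5.68, 2.34 and 2.95 CPM with the implant and at 1.25, 7.28 and 2.60 CPM in NC, a span of 5.84-fold over all libraries on 24 to 126 counts. The steady set was Ebp, the sterol isomerase, and Dhcr7, the reductase of a last step. Ebp was at 11.1, 9.40 and 9.26 CPM with the implant and at 9.19, 10.8 and 11.5 CPM in NC. Dhcr7 was at 19.1, 17.4 and 12.6 CPM with the implant and at 15.2, 17.9 and 15.8 CPM in NC, a log2 fold change of 0.01 ± 0.19 (SE).

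Among the regulators, Insig1 stood apart from the enzymes. Its level was 97.5, 78.1 and 95.05 CPM with the implant and 107, 111 and 178 CPM in NC, so that every implant library lay below every NC library. The means were 90.2 ± 10.5 CPM with the implant and 132 ± 40.02 CPM in NC (SD, n = 3 each), a log2 fold change of -0.55 ± 0.23 (SE) with an approximate 95% interval of -1.01 to -0.09. By edgeR's quasi-likelihood test its adjusted p was 1.0 (unadjusted p = 0.057). Without NC 3 its log2 fold change was -0.27. Insig1 was the 1 sterol gene of 18 whose groups did not overlap in either direction, against 796 of 13999 genes tested. On the lower side alone, 2.88% of all genes tested lay wholly lower with the implant. Srebf2, which encodes SREBP-2, was at 83.5, 50.5 and 82.5 CPM with the implant and at 50.1, 94.5 and 45.8 CPM in NC, a log2 fold change of 0.18 ± 0.34 (SE). Stard4, which carries cholesterol between membranes, was at 19.4, 12.8 and 23.4 CPM with the implant and at 11.9, 23.2 and 14.4 CPM in NC. Both had their 3 highest libraries in implant 1, implant 3 and NC 2, as most of the enzymes did.

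**Figure D1:**
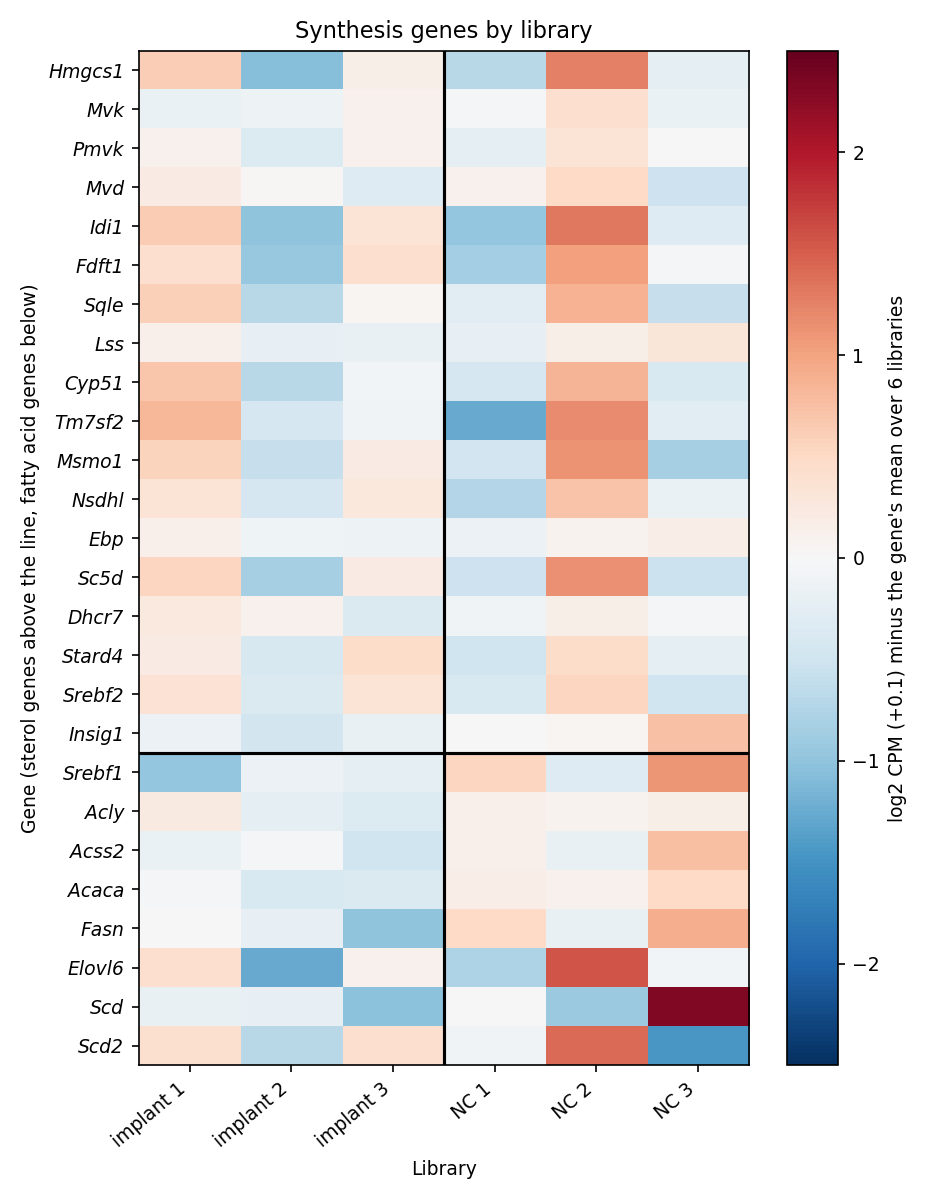
The heat map gives the log2 CPM (with 0.1 added) of 26 genes in each of the 6 libraries, minus the gene's own mean over the libraries; red is above and blue below that mean, sterol genes are above the horizontal line and fatty acid genes below it. NC 2 is red in most sterol rows, while NC 3 is dark red for Scd and dark blue for Scd2.

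Most of the sterol genes shared a set of highest libraries that cut across the groups. In 12 of 18 the highest 3 libraries were NC 2, implant 1 and implant 3 in any order, as in 16.2% of all genes tested. These were Hmgcs1, Pmvk, Idi1, Fdft1, Sqle, Cyp51, Tm7sf2, Msmo1, Nsdhl, Sc5d, Stard4 and Srebf2. NC 2 was the highest library for 13 of 18, against 25.4% of all genes, and NC 3 for 3 of 18. Implant 2 was the lowest for 8 of 18. Averaged over the 18 genes, the centred log2 level was 0.35, -0.47 and 0.07 in implant 1 to 3 and -0.42, 0.68 and -0.20 in NC 1 to 3. The 15 myelin markers, none of which is a member, had the same 3 highest libraries in 15 of 15 cases. Mbp, the myelin basic protein, was at 2526, 266 and 3085 CPM with the implant and at 295, 6100 and 420 CPM in NC. The part of myelin content in the sterol levels was not tested. With NC 2 left out, the median log2 fold change of the sterol genes was 0.48 in place of -0.08.

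Of the fatty acid genes, Acaca, Srebf1 and Fasn had the largest differences relative to their SE, all lower with the implant and none past the adjusted threshold. Acaca, the acetyl-CoA carboxylase that commits carbon to fatty acids, was at 165, 129 and 132 CPM with the implant and at 188, 183 and 237 CPM in NC. All 3 implant libraries were below all 3 NC libraries, as for 2.88% of all genes tested. Acaca was the 1 fatty acid gene of 8 whose groups did not overlap in either direction, against 796 of 13999 genes tested. The means were 142 ± 20.0 CPM with the implant and 203 ± 29.7 CPM in NC (SD, n = 3 each), a log2 fold change of -0.51 ± 0.17 (SE) and an approximate 95% interval of -0.85 to -0.18. Its edgeR quasi-likelihood p was 0.023 unadjusted and 1.0 adjusted, and 0.693% of all genes had an unadjusted p under 0.05 on the lower side. Srebf1, which encodes SREBP-1, was at 82.2, 144 and 137 CPM with the implant and at 233, 128 and 344 CPM in NC. NC 2 lay among the implant libraries, and the log2 fold change was -0.95 ± 0.40 (SE), with an edgeR adjusted p of 1.0 (unadjusted p = 0.055). Fasn, the fatty acid synthase, was at 474, 409 and 235 CPM with the implant and at 671, 416 and 892 CPM in NC. It had a log2 fold change of -0.82 ± 0.38 (SE), with an edgeR adjusted p of 1.0 (unadjusted p = 0.070), and again NC 2 lay among the implant libraries.

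The suppliers of acetyl-CoA also had negative values, within their spread. Acly, which cleaves citrate to acetyl-CoA, was at 225, 162 and 151 CPM with the implant and at 210.0, 204 and 214 CPM in NC, a log2 fold change of -0.22 ± 0.18 (SE). Its NC libraries were within 1.05-fold of each other. Acss2, which makes acetyl-CoA from acetate, was at 37.9, 42.0 and 29.95 CPM with the implant and at 46.6, 37.3 and 72.0 CPM in NC, a log2 fold change of -0.50 ± 0.27 (SE). Elovl6, an elongase of saturated fatty acids, was at 10.8, 3.31 and 8.67 CPM with the implant and at 4.67, 24.2 and 7.66 CPM in NC. Its highest library was NC 2 and its lowest implant 2, whereas Fasn and Srebf1 were highest in NC 3.

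**Figure D2:**
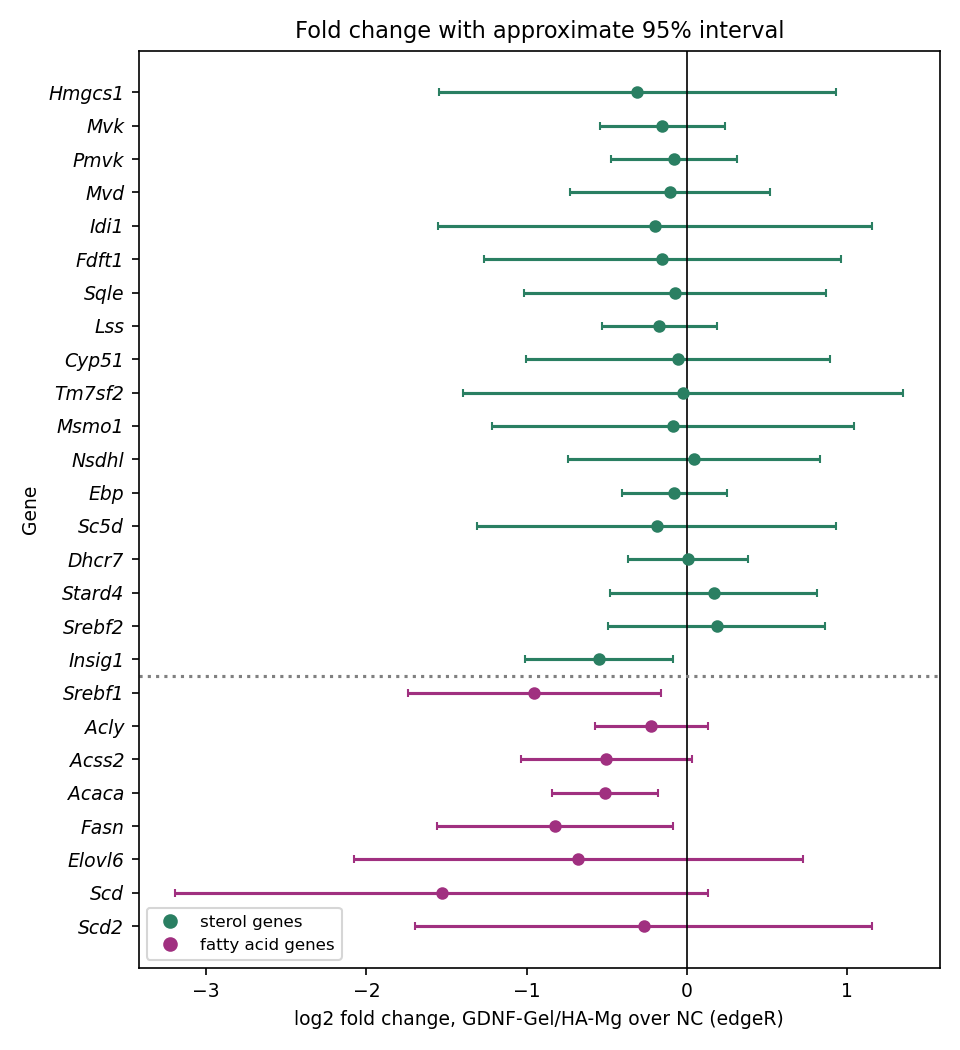
Each point is a gene's log2 fold change, GDNF-Gel/HA-Mg over NC, from edgeR (3 libraries a group), and each bar its approximate 95% interval; green is sterol and purple is fatty acid synthesis. All 8 purple points lie left of 0, and 4 of the 26 intervals (Insig1, Srebf1, Fasn and Acaca) do not reach it. These intervals use a normal multiplier, which is too narrow for 3 libraries a group. By edgeR's quasi-likelihood test the unadjusted p was 0.057, 0.055, 0.070 and 0.023 in that order, and no adjusted p passed 0.05.

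The fatty acid genes followed NC 3 more than NC 2. Srebf1, Fasn, Acaca, Scd and Acss2, 5 of the 8, were highest in NC 3, against 24.8% of all genes tested. Scd2 and Elovl6 were highest in NC 2. The mean centred level of the 8 genes was -0.04, -0.39 and -0.37 in implant 1 to 3 and 0.08, 0.19 and 0.53 in NC 1 to 3. Fat cell markers were also highest in NC 3: Adipoq, the hormone adiponectin, was at 400.5, 727 and 519 CPM with the implant and at 724, 314 and 2915 CPM in NC. Plin1, which coats lipid droplets, was at 110.0, 191 and 158 CPM with the implant and at 298, 129 and 646 CPM in NC. All 13 fat cell markers tested had a negative log2 fold change, with a median of -1.01. Their part in the fatty acid levels was not tested. Without NC 3 the log2 fold change was -0.58 for Srebf1, -0.55 for Fasn, -0.39 for Acaca and -0.20 for Acss2, and the median of the 8 genes was -0.47.

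The 2 stearoyl-CoA desaturases, Scd and Scd2, were highest in different NC libraries. Both enzymes put the first double bond into stearate and palmitate. Scd was at 1016, 1002 and 565 CPM with the implant and at 1158, 602 and 5697 CPM in NC. NC 3 was far above every other library, and the other 5 lay between 565 and 1158 CPM. Scd2 was at 2154, 1012 and 2192 CPM with the implant and at 1534, 4336 and 598 CPM in NC. Here NC 3 was the lowest library and NC 2 the highest. Scd had the most negative log2 fold change of all members, -1.53 ± 0.85 (SE), with an edgeR adjusted p of 1.0, and without NC 3 it was -0.04. Scd2 had -0.27 ± 0.73 (SE), which was 0.74 without NC 2.

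As a ratio within each library, Scd2 over Scd counts were 2.12, 1.01 and 3.88 with the implant and 1.32, 7.20 and 0.105 in NC, a span of 68.6-fold from NC 3 to NC 2. The mean ratio was 2.34 ± 1.45 with the implant and 2.88 ± 3.79 in NC (SD, n = 3 each), and the groups overlapped. Transcript lengths were not taken into account, so only the change of the ratio between libraries can be read. Scd and Scd2 are close paralogs on chromosome 1 with 1 annotated gene, Scd4, between them in RefSeq, and their estimated counts were not whole. Reads may therefore have been split between them, and the counter that did so is not named in the labels.

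**Figure D3:**
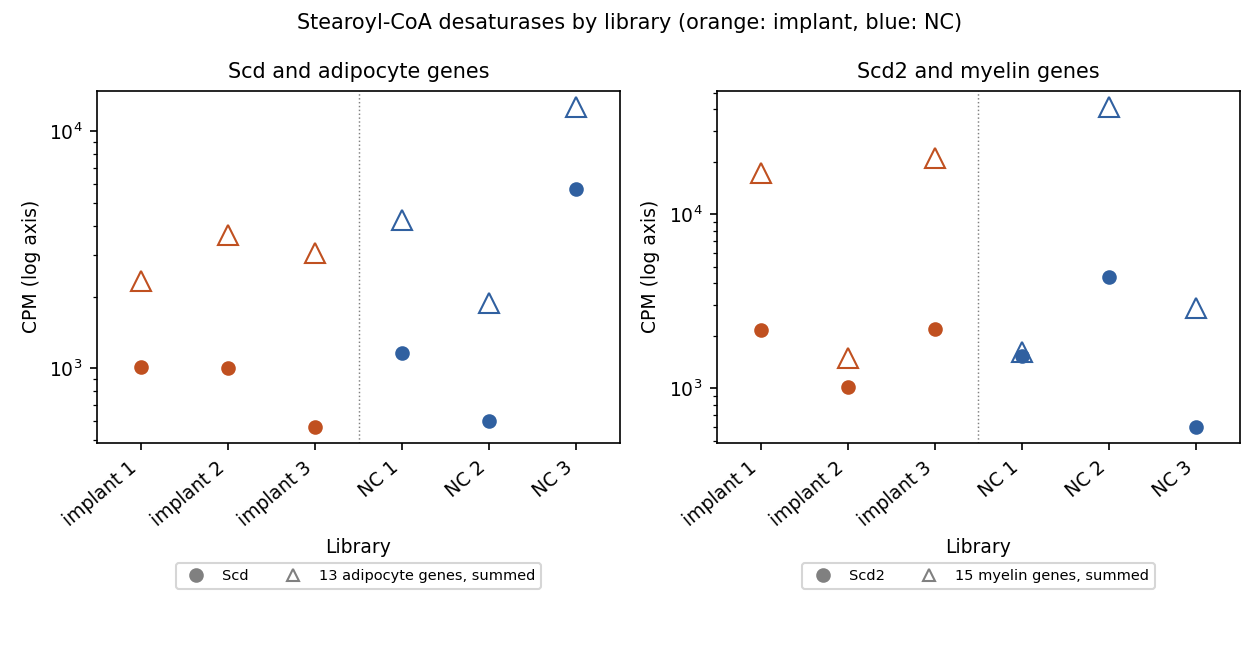
The left panel gives Scd (filled circles) beside the summed level of 13 fat cell markers (open triangles), and the right panel gives Scd2 beside 15 myelin markers, in CPM on log axes for each library; orange is GDNF-Gel/HA-Mg and blue is NC. Scd and the fat cell markers are both highest in NC 3, at 5697 and 12746 CPM, while Scd2 and the myelin markers are both highest in NC 2, at 4336 and 41596 CPM. The lowest libraries differ. Scd is lowest in implant 3 (565 CPM) and the fat cell markers in NC 2 (1886 CPM). Scd2 is lowest in NC 3 (598 CPM) and the myelin markers in implant 2 (1484 CPM).

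The genes of the SREBPs themselves also ran apart. Srebf1 over Srebf2 counts were 0.986, 2.86 and 1.67 with the implant and 4.64, 1.36 and 7.50 in NC. The mean ratio was 1.84 ± 0.95 with the implant and 4.50 ± 3.08 in NC (SD, n = 3 each), and the groups overlapped, since NC 2 lay among the implant libraries. The centred level of the sterol genes minus that of the fatty acid genes was 0.38, -0.08 and 0.44 in implant 1 to 3 and -0.50, 0.48 and -0.73 in NC 1 to 3. Its mean was 0.25 ± 0.28 with the implant and -0.25 ± 0.64 in NC (SD, n = 3 each), a difference of 0.50 on the log2 scale. Here too NC 2, the library with the most myelin RNA, was above all implant libraries, while the other NC libraries were below them. Without NC 3 the difference was 0.26, and without NC 2 it was 0.86.

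**Figure D4:**
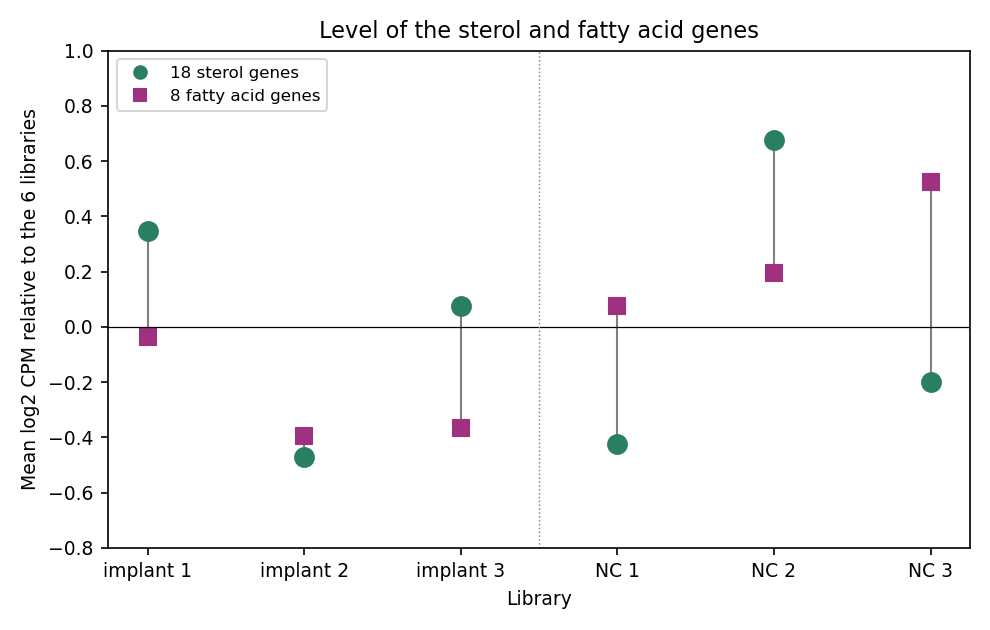
For each library, the circle is the mean log2 CPM of 18 sterol genes and the square that of 8 fatty acid genes, each gene first centred on its mean over the 6 libraries; the grey line joins the pair. The circle is above the square in implant 1, implant 3 and NC 2, and below it in implant 2, NC 1 and NC 3, where the gap is widest at -0.73.

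The spread within a group was wider in NC for 23 of the 26 genes, all but Cyp51, Dhcr7 and Acly, against 67.4% of all genes tested, so a wider spread in NC was general. Over all 6 libraries, the highest level was a median of 2.497 times the lowest for the sterol genes and 3.99 times for the fatty acid genes, against 1.68 times for all genes tested. The approximate 95% intervals of 24 of the 26 genes lay within a 4-fold change in either direction. Their normal multiplier is too narrow for 3 libraries a group, so this count may be too high. Differences smaller than these intervals allow were not detectable, and larger ones could be missed, since calls used a p adjusted over all genes. The median SE was 0.37 for the sterol and 0.39 for the fatty acid genes on the log2 scale.

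Related genes outside the 27 were counted for comparison. Of 12 further genes of sterol and isoprenoid synthesis or of SREBP control, 6 had a positive and 6 a negative log2 fold change, with a median of 0.00 and none called. Dhdds and Nus1, the subunits of the enzyme that makes dolichol from farnesyl diphosphate, had -0.11 ± 0.10 and -0.15 ± 0.11 (SE). Dhdds was at 25.6, 28.0 and 26.0 CPM with the implant and at 28.6, 29.0 and 28.6 CPM in NC, a small difference with no overlap between the groups. No overlap in either direction held for 1 of the 12 genes and for 796 of 13999 genes tested. Dhdds lay wholly lower with the implant, as did 2.88% of all genes tested. Acat2, a thiolase at the head of the mevalonate pathway, had -0.21 ± 0.24, and Scap, the escort of the SREBPs, 0.08 ± 0.15 (SE).

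Among 25 further genes of fatty acid synthesis, activation, elongation and desaturation, 22 had a negative log2 fold change, the median was -0.25 and none was called. Fads3, a desaturase, was at 45.6, 54.0 and 51.4 CPM with the implant and at 62.5, 58.8 and 65.2 CPM in NC. Its groups did not overlap, which held in either direction for 1 of the 25 genes and for 796 of 13999 genes tested. Fads3 lay wholly lower with the implant, as did 2.88% of all genes tested. It had a log2 fold change of -0.30 ± 0.12 (SE), with an edgeR adjusted p of 1.0 (unadjusted p = 0.038). Slc25a1, the carrier that exports citrate from mitochondria, had -0.28 ± 0.17, and Lpin1, a phosphatidate phosphatase, -0.40 ± 0.24 (SE). Acsl1, which activates long-chain fatty acids, was at 175, 237 and 356 CPM with the implant and at 363, 216 and 920.2 CPM in NC. Like Scd it was highest in NC 3, as were 11 of the 25 genes.

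The 17 genes of cholesterol uptake, efflux and storage had no common direction, with 9 positive, 8 negative, a median of 0.00 and none called. Lipa, the lysosomal lipase that frees cholesterol from its esters, was at 125, 110.1 and 129 CPM with the implant and at 105, 100.3 and 64.8 CPM in NC. Every implant library was above every NC library, as for 2.81% of all genes tested, with a log2 fold change of 0.43 ± 0.21 (SE) and an edgeR adjusted p of 1.0. Lrp1, a lipoprotein receptor, had -0.36 ± 0.25 and Abcg1, a cholesterol exporter, -0.38 ± 0.37 (SE). Cyp46a1, which hydroxylates cholesterol, had -0.70 ± 0.65 (SE) at levels between 0.519 and 3.11 CPM over the 6 libraries.

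Markers of other cell types are given for comparison. Schwann lineage markers summed to 1147 to 2349 CPM with the implant and to 850.2 to 3941 CPM in NC. NC 2 was the highest library for 7 of 11, and NC 3 the lowest for 9 of 11. Of these 11, 7 had a positive and 4 a negative log2 fold change, with a median of 0.14. Macrophage markers summed to 2534 to 4171 CPM with the implant and to 2168 to 3094 CPM in NC. Of the 13 macrophage markers, 8 had a positive and 5 a negative log2 fold change, with a median of 0.11. Fibroblast markers summed to 14155 to 21579 CPM with the implant and to 17560 to 22524 CPM in NC, and 6 of 8 were lowest in implant 3. Of these 8, 1 had a positive and 7 a negative log2 fold change, with a median of -0.19. Endothelial markers summed to 976 to 1257 CPM with the implant and to 657 to 1616 CPM in NC, and 5 of 6 were highest in NC 3. Their log2 fold change was positive in 4 and negative in 2, with a median of 0.02. Skeletal muscle markers ranged most, from a summed 82.3 to 8172 CPM with the implant and from 27.9 to 1318 CPM in NC. Acta1 and Ckm, muscle actin and creatine kinase, were lowest in NC 1 and highest in implant 3. The part of these cell types in the levels of the synthesis genes was not tested.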

How the data were processed

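Polyadenylated RNA of 6 libraries was sequenced with a kit that does not mark strand, per the labels' protocols, so overlapping and antisense genes cannot be told apart. The authors deposited estimated counts (expected counts) per gene, with 1898 to 2085 values per library that are not whole. HISAT2, StringTie 1.3.1, Bowtie2 2.2.8 and DESeq2 are listed without roles, per the submitters' processing notes. The counter is not given in the sources used here, nor are the genome build and annotation. Treated columns carry the name Gel_HA-Mg with no mention of GDNF, and were matched to the GDNF-Gel/HA-Mg samples by number. No pair of libraries of the same group agreed within sampling noise, and pairs across the groups were not compared in this way.

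Counts were rounded, filtered with filterByExpr (13999 genes), scaled by TMM and compared with edgeR 4.0.16 under R 4.3.3 (two-sided quasi-likelihood test with 1 term, the group), with Benjamini-Hochberg adjustment over all genes at 0.05. CPM values use the scaled library size. Each SE was taken from the fold change and the square root of F, so the intervals are approximate. They use a normal multiplier, which is too narrow for 3 libraries a group. Some therefore leave out 0 where edgeR's unadjusted p was above 0.05. The biological coefficient of variation was 0.384. Alternatives were RLE and upper quartile scaling, TMM without the 50 most abundant genes, leaving out the haemoglobin genes, DESeq2 1.42.0, limma-voom (limma 3.58.1), no filter, a CPM filter of 1 in 3 libraries, a replicate block, each library left out, and the members without regulators. Figures were drawn with matplotlib 3.10.9.

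The members and the lists were chosen with earlier results of these data known. Named are all 27 members, up to 4 genes of each related list by smallest p, and the first 2 measured markers of each cell type. Some genes that this rule takes are not reported here. Promoters are RefSeq's (GRCr8); none was matched for Acaca, Elovl6, Fasn, Fdft1, Pmvk, Sqle and Stard4.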

Additional observations from a re-analysis of the deposited data

How the results depend on the processing

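Other scalings, filters and limma-voom called no gene, as edgeR did, while DESeq2 called 11. Leaving out single libraries also gave 0 calls each time. The median log2 fold change of the fatty acid genes stayed between -0.68 and -0.47 over the left-out libraries, and that of the sterol genes ran between -0.30 (without implant 1) and 0.48 (without NC 2). The sterol minus fatty acid difference ran between 0.26 and 0.86, and was 0.45 for the enzymes alone. Under settings that kept all libraries, 222 values of single members kept their sign and 12 did not. Dhcr7 was -0.0056 with RLE scaling, -0.0054 with DESeq2 and -0.011 with limma-voom, which also gave 0.10 for Msmo1, 0.26 for Tm7sf2 and 0.12 for Scd2. Leaving out a library turned the sign of 36 values and kept that of 120. The ranges were -0.68 to 0.50 for Hmgcs1, -0.27 to 0.042 for Mvk, -0.19 to 0.087 for Pmvk, -0.34 to 0.16 for Mvd, -0.56 to 0.76 for Idi1, -0.48 to 0.48 for Fdft1, -0.41 to 0.49 for Sqle, -0.47 to 0.48 for Cyp51, -0.47 to 0.93 for Tm7sf2, -0.41 to 0.76 for Msmo1, -0.22 to 0.53 for Nsdhl, -0.47 to 0.59 for Sc5d, -0.11 to 0.16 for Dhcr7, -0.039 to 0.49 for Stard4, -1.05 to 0.30 for Elovl6 and -0.71 to 0.74 for Scd2. Srebf1, Fasn, Acaca, Insig1, Scd, Acss2, Acly, Lss and Ebp stayed negative under every setting run. The cause of these turns was not tested.

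The replicate numbers gave no sign of pairing: same-numbered libraries' deviations from their group means correlated at 0.10, -0.72 and 0.06. Of the implant libraries, 0 of 3 correlated best with its own number. With 3 libraries a group these correlations depend on one another, so whether same-numbered libraries share an origin cannot be told from them. With the replicate block, 0 genes were called and the medians were -0.01 (sterol) and -0.49 (fatty acid). Sqle was then at 0.0085, Idi1 at 0.078, Dhcr7 at -0.013, Msmo1 at 0.17, Tm7sf2 at 0.22 and Scd2 at 0.15. Depth limits Tm7sf2 most, at 24 to 126 counts per library.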
